A study of Mus musculus with 20 samples.

Results

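The 10 genes described here are Ghr, Jak2, Stat5a, Stat5b, Bcl6, Cux2, Igf1, Igfals, Socs2 and Cish, the core of growth hormone signalling through the transcription factor STAT5 in liver. They were chosen by name, each matched to 1 identifier, and they are 10 of the 46603 identifiers counted. All 10 passed the filter on low counts, which left 14661 genes for testing. Growth hormone from the pituitary binds the receptor GHR on hepatocytes, and the kinase JAK2 attached to the receptor phosphorylates STAT5A and STAT5B. These then enter the nucleus and switch on Igf1 and Igfals, whose products circulate together, and Socs2 and Cish, whose products dampen the same signal. In rodents the hormone is released in pulses in males and more evenly in females. The liver carries sex-biased gene expression that follows this pattern, with the repressor BCL6 known as male-biased and the repressor CUX2 as female-biased.

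Poly(A) RNA of liver was sequenced in 20 libraries from male mice aged 2 months, in 4 groups of 5. Wild-type (WT) mice were C57BL/6J animals from a vendor. The knockout mice, EedHepKO (KO), combined Alb:Cre with Eedflox, a floxed allele of Eed, a design meant to remove the function of EED, a core subunit of polycomb repressive complex 2, in hepatocytes. Bulk RNA does not show which liver cells kept Eed. The baseline samples were lobes 1, 2 and 3, which were removed at partial hepatectomy (PHx), and the later samples were lobes 4, 5 and 6 of mice killed 30 h (1 per genotype), 40 h (2 per genotype) or 48 h (2 per genotype) after surgery. Genotype cannot be told apart from colony of origin, nor the PHx response from the lobe sampled. The titles number 9 mice, 4 WT and 5 KO, that gave a sample at both stages; WT baseline replicate 1 carries no mouse number.

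Levels are in CPM, counts per 1000000 of the normalised library total, and a gene is called where its Benjamini-Hochberg adjusted p in edgeR's two-sided quasi-likelihood test over all genes was under 0.05. Library totals ran from 21634890 to 30461351 counts. Eed itself averaged 16.8 ± 1.09 CPM (SD, n = 5) in WT and 5.64 ± 1.44 CPM (SD, n = 5) in KO at baseline, and 18.4 ± 3.98 CPM and 4.62 ± 1.14 CPM (SD, n = 5 each) after PHx, with no overlap between genotypes at either stage. Hepatocyte markers were present as the labelled tissue requires: 10 genes, Alb and Ttr among them, summed to between 40056 and 147869 CPM in every library. WT baseline replicate 1 stood apart. Its counts differed from those of the other WT baseline libraries by a mean chi-square per gene of 360 to 392, against 29.3 to 44.1 among the other 4. The member tests, list counts, Stat5b to Stat5a ratio and liver-by-liver relations that use it were also run without it, and where a call or a count changed by more than 1.5 times the value is given beside the result.

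STAT5 dimers bind the palindrome TTCNNNGAA, and the promoter stretches below are shown because they hold it in the target genes of the pathway. Each is read 5′ to 3′ on the gene's own strand from RefSeq promoter windows of 300 bases on GRCm38.p6 (mm10), with the palindrome in capitals. The Bcl6 stretches lie at chr16:23988942-23988990 (minus strand, outside any GENCODE gene, before the first start site) and chr16:23981343-23981471 (minus strand, in an intron, before the other start site). The Igfals stretches lie at chr17:24877594-24877636 and chr17:24878153-24878201 (plus strand, each in an intron in GENCODE, before the first and the second of 3 RefSeq start sites), and the Cish stretch at chr9:107296654-107296683 (plus strand, 5′ UTR in GENCODE, at the RefSeq start site).
Bcl6, first start site: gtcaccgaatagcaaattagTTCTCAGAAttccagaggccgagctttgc
Bcl6, second start site: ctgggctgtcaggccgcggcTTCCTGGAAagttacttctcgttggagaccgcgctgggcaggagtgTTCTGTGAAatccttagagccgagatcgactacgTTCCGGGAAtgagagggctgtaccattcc
Igfals, first start site: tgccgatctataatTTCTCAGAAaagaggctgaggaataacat
Igfals, second start site: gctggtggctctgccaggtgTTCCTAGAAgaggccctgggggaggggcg
Cish: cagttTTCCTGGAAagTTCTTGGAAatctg
The palindrome, which reads the same on both strands, is present in 8.3% of all 32851 windows, and in a window of 9.55% of the 27025 genes that have one. Of the members with a window, Bcl6, Igfals and Cish held it, and Ghr, Jak2, Stat5a, Stat5b, Cux2 and Igf1 did not. A match is a string of letters, not a measured binding site.

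Against this background, the members moved unevenly. At baseline 1 member of 10 was called higher in KO (Cux2) and 2 lower (Ghr and Igf1), where 11.1% of all genes tested were higher and 4.89% lower. After PHx the same 3 genes were called in the same directions, against 16% higher and 8.20% lower overall. The PHx response in WT held 4 members called lower (Ghr, Stat5b, Igfals and Socs2) and 0 called higher, against 11.4% of all genes higher and 8.68% lower. In KO it held 2 called lower (Ghr and Stat5b) and 0 higher, against 17.5% higher and 12.1% lower. For the difference of the responses between genotypes no member was called by edgeR, against 0.164% of all genes higher and 0.225% lower; none had an unadjusted p under 0.05, and DESeq2 called none. The median log2 fold change of the members was -0.22 and 0.19 for KO against WT at baseline and after PHx, and -0.84 and -0.92 for the PHx response in WT and KO. Over all genes tested these medians were -0.03, -0.01, 0.04 and 0.10. The shares of all genes rest in part on single libraries. Leaving out 1 at a time, 309 to 724 genes were lower at baseline, against 717 with all libraries, and 309 to 476 without WT replicate 3, 4 or 5 or KO replicate 7, 10 or 11. Lower after PHx were 757 without KO replicate 7 and 2151 without KO replicate 10, against 1202. In the WT response 755 were lower without replicate 4 after PHx, against 1273, and in the KO response 1098 and 1173 without replicates 7 and 8 after PHx, against 1770. The 4 comparisons share samples, so their values are set side by side and not counted as separate support.

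**Figure D1:**
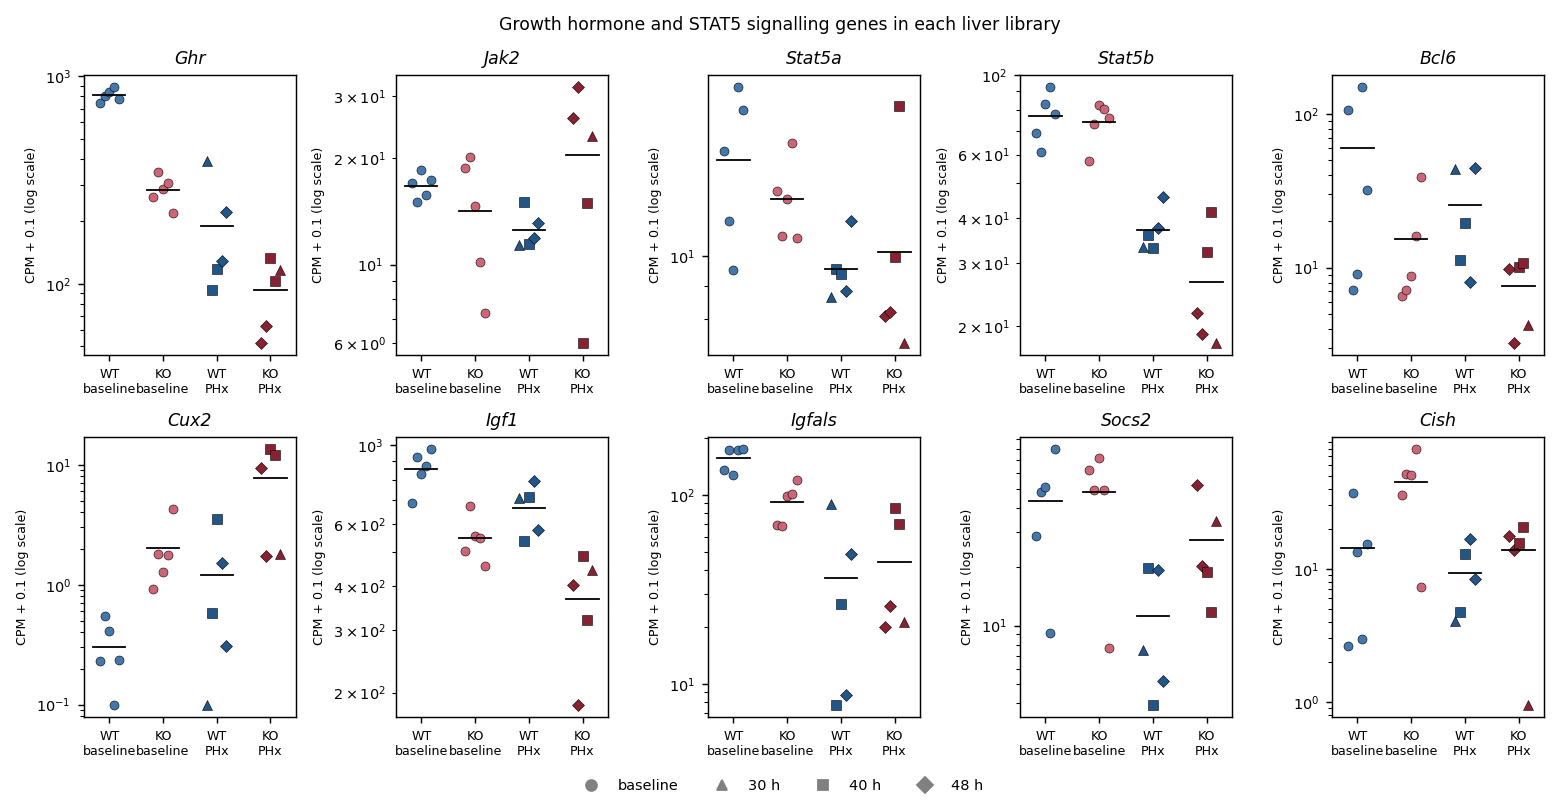
Level of each of the 10 genes in each of the 20 libraries, in CPM plus 0.1 on a log scale, by group; the symbol gives the hours after PHx and the horizontal line the group mean. Ghr separates the genotypes at baseline (743 to 886 CPM in WT, 220 to 347 CPM in KO), while Bcl6, Socs2 and Cish spread widely inside the groups.

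**Figure D2:**
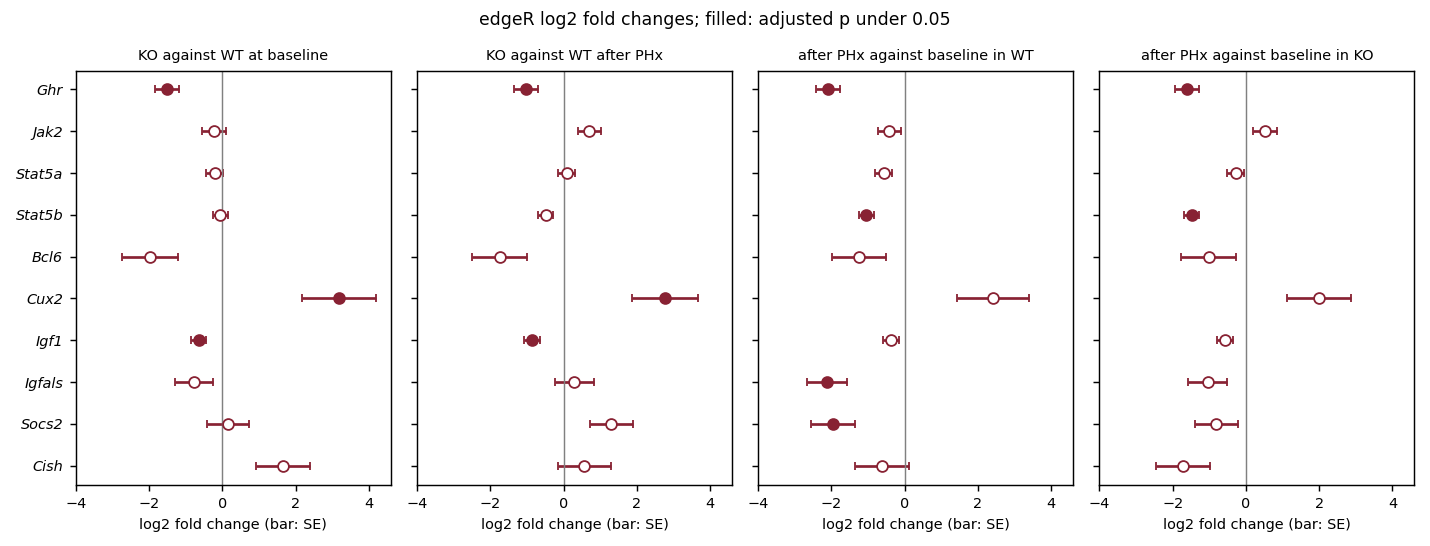
Log2 fold change of each gene (x axis, bar: SE) in the comparisons of genotype and of stage from 1 edgeR fit; filled points have an adjusted p under 0.05. Ghr is filled and below 0 in all 4 panels, and the 3 filled points of both genotype panels are Ghr, Cux2 and Igf1.

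Ghr, the receptor gene, was the only member called in all 4 comparisons of genotype and stage. It (ENSMUSG00000055737, chromosome 15, 3317760 to 3583492, minus strand) measured 743, 807, 838, 886 and 782 CPM in the 5 WT livers at baseline. In KO livers at baseline it measured 263, 347, 286, 305 and 220 CPM, so every KO liver lay below every WT liver. The KO mean was 35% of the WT mean, a log2 fold change of -1.51 (SE 0.33, edgeR adjusted p 0.00355). After PHx the WT livers held 389 CPM at 30 h, 93.3 and 118 CPM at 40 h, and 129 and 222 CPM at 48 h. The KO livers held 117 CPM at 30 h, 133 and 103 CPM at 40 h, and 52.0 and 62.5 CPM at 48 h. The genotypes overlapped here: the highest WT value came from the single 30 h liver, and the 30 h and 40 h livers of KO lay inside the range of WT. The 48 h livers of KO lay below it.

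Within each genotype Ghr fell after PHx, to 23.4% of the baseline mean in WT (log2 fold change -2.09, SE 0.33, edgeR adjusted p 0.000375) and to 32.9% in KO (-1.60, SE 0.33, adjusted p 0.00249). The groups did not overlap in either genotype, and Ghr was lower after PHx in 4 of 4 WT and 5 of 5 KO mice that are numbered at both stages. Both responses and the baseline difference kept their calls under every alternative run. Their difference was 0.49 (SE 0.45, edgeR adjusted p 0.694), and from 0.31 (without WT after PHx replicate 2) to 0.92 (adjusted p 0.296, without WT after PHx replicate 1) with 1 library left out. The genotype difference after PHx (-1.02, SE 0.32, edgeR adjusted p 0.0264) was less firm, with 8 of 18 alternatives above the threshold. Without WT after PHx replicate 1, the 30 h liver, it was -0.59 (edgeR adjusted p 0.127), and without both 30 h livers -0.68 (0.0946).

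Beside the lower Ghr, the summed hepatocyte markers ran from 126726 to 147869 CPM in WT at baseline and from 79654 to 105880 CPM in KO at baseline. After PHx they ran from 76047 to 123299 CPM in WT and from 40056 to 96488 CPM in KO. Alb alone averaged 92620 CPM in WT and 59795 CPM in KO at baseline, most of the sum. It was not called at either stage (edgeR adjusted p 0.136 and 0.0695). Of the 10 genes 2 were called lower in KO at each stage (20%, against 4.89% and 8.20% of all genes), with medians of -0.35 and -0.445. Without WT baseline replicate 1, 0 were called lower at baseline. The PHx response called 2 of 10 lower in each genotype (20%, against 8.68% and 12.1%). In bulk tissue, fewer cells of a type and less RNA per cell cannot be told apart. Markers of other liver cells were read against the shares of all genes called higher in KO, 11.1% at baseline and 16% after PHx. The macrophage list (8 genes) summed to 163 to 282 CPM in WT and 412 to 540 CPM in KO at baseline, with 3 of 8 called higher (37.5%), and to 68.9 to 357 and 80.1 to 374 CPM after PHx, with 1 higher (12.5%, below the share of all genes). The stellate cell list (8 genes) summed to 163 to 267 CPM in WT and 432 to 580 CPM in KO at baseline (6 of 8 higher, 75%), and to 171 to 247 and 288 to 510 CPM after PHx (4 of 8 higher, 50%). The cholangiocyte list (7 genes, 6 tested) summed to 23.3 to 58.2 CPM in WT and 55.6 to 359 CPM in KO at baseline (1 of 6 higher, 16.7%, near the share of all genes), and to 21 to 239 and 122 to 571 CPM after PHx (5 of 6 higher, 83.3%, median 2.93). The endothelial list (8 genes) had 1 of 8 higher in KO at each stage (12.5%), near or below the share of all genes, and of 5 tested neutrophil genes 2 were higher at baseline (40%) and 0 after PHx. Without WT baseline replicate 1, 0 endothelial, 2 cholangiocyte and 1 neutrophil genes were called higher at baseline. In the PHx response 11.4% of all genes were higher and 8.68% lower in WT, and 17.5% and 12.1% in KO. The macrophage list had 2 of 8 higher and 1 lower in WT (25% and 12.5%; 2 and 0 without WT baseline replicate 1) and 1 higher and 4 lower in KO (12.5% and 50%). The stellate list had 0 called in WT and 2 of 8 lower in KO (25%). The endothelial list had 1 of 8 lower in WT and 1 higher and 1 lower in KO (12.5% each), near or below the shares of all genes except for the lower ones in WT. Of the 6 cholangiocyte genes 0 were called in WT and 4 rose in KO (66.7%), and of the 5 neutrophil genes 4 rose in WT (80%) and 1 in KO (20%, near the share of all genes). The lymphocyte list (8 genes, 5 tested) summed to 3.14 to 8.14 CPM at baseline and 0.11 to 2.67 CPM after PHx over both genotypes, and 4 of 5 fell in each genotype (80%). No marker was at 0 in all libraries of a group, apart from Ly6g of the neutrophil list in both baseline groups. The part of these cells in the results was not tested.

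Jak2 (ENSMUSG00000024789, chromosome 19, 29251828 to 29313080, plus strand), the receptor's kinase, was called in none of the comparisons. WT livers were even, at 14.9 to 18.4 CPM at baseline and 11.3 to 14.9 CPM after PHx. KO livers spread from 7.18 to 20.0 CPM at baseline and from 5.91 to 31.7 CPM after PHx. After PHx 3 of 5 KO livers exceeded every WT liver, and KO replicate 10, from 40 h, was the lowest of all 20 libraries. Without that liver the genotype difference after PHx was 0.94 (edgeR adjusted p 0.00801), against 0.71 (SE 0.32, adjusted p 0.121) with it, and the KO response 0.75 (adjusted p 0.0233), against 0.52 (adjusted p 0.223) with it. With 1 library left out, these values ran from 0.48 to 0.94 and from 0.30 to 0.75 (highest edgeR adjusted p 0.337 and 0.533).

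The transcription factors came next in the chain. Stat5b (ENSMUSG00000020919, chromosome 11, 100780731 to 100850724, minus strand) was at 68.7, 61.0, 83.1, 92.2 and 77.6 CPM in WT and at 57.5, 72.9, 82.5, 80.4 and 76.0 CPM in KO at baseline. The ranges of the groups overlapped. It fell after PHx in both genotypes, to 33.1, 35.7, 33, 37.5 and 45.7 CPM in WT and to 21.7, 19, 32, 41.6 and 17.9 CPM in KO, with no overlap with baseline in either. Log2 changes of -1.05 (SE 0.21, edgeR adjusted p 0.00191) in WT and -1.48 (SE 0.21, adjusted p 0.000313) in KO were measured, and all 9 numbered mice went down. The difference of the responses was -0.43 (SE 0.29, edgeR adjusted p 0.539), and from -0.73 to -0.32 with 1 library left out (lowest adjusted p 0.22). After PHx the KO livers of 40 h, replicates 10 and 11, lay within the WT range or just below it and the other 3 KO livers below every WT liver. KO against WT was -0.48 (SE 0.20, edgeR adjusted p 0.0917), -0.73 (adjusted p 0.00822) without KO replicate 11 and -0.56 (adjusted p 0.0498) without KO replicate 10.

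Stat5a (ENSMUSG00000004043, chromosome 11, 100859351 to 100885169, plus strand) lies beside Stat5b and was the scarcer of the pair per length. It ranged from 9.42 to 18.2 CPM in WT and from 10.6 to 14.9 CPM in KO at baseline, and from 8.55 to 11.2 CPM in WT and from 7.24 to 17 CPM in KO after PHx. It was called in no comparison; the PHx response was -0.57 (SE 0.23, edgeR adjusted p 0.0862) in WT and -0.28 (SE 0.23, adjusted p 0.370) in KO. Stat5a shares 72 exonic bases with Stat3 on the other strand, and the strand setting of the counting is not given in the sources used here. Stat3 was called higher after PHx in both genotypes, at 103 and 211 CPM in WT and 138 and 273 CPM in KO before and after; its part in the Stat5a counts was not tested.

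Per kilobase of exon, Stat5b exceeded Stat5a 7.38 ± 2.26 times in WT and 7.93 ± 1.44 times in KO at baseline (SD, n = 5 each). After PHx the ratio was 5.04 ± 0.37 in WT and 3.41 ± 0.46 in KO (SD, n = 5 each). Between genotypes, in two-sided exact permutation tests of the log ratio adjusted over 4 comparisons, the p was 0.548 at baseline and 0.0317 after PHx, where the raw p of 0.00794 is the smallest that 5 against 5 livers allow. Between stages the ratio was lower after PHx in 4 of 4 numbered WT mice and 5 of 5 KO mice. Exact sign flips within mice gave 0.125 and 0.0625, the smallest p that 4 and 5 mice allow, so this design cannot pass the threshold (adjusted p 0.167 and 0.125). The ratio was examined after the values of both genes had been seen.

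Among the repressors, Cux2 (ENSMUSG00000042589, chromosome 5, 121856366 to 122050102, minus strand) was near the limit of detection in WT. WT livers at baseline held 2, 9, 6, 0 and 3 counts of Cux2 (0.13, 0.45, 0.31, 0 and 0.14 CPM). KO livers at baseline held 25, 40, 34, 40 and 89 counts (0.83, 1.69, 1.17, 1.66 and 4.18 CPM), each above every WT liver. KO exceeded WT by 3.18 on the log2 scale (SE 1.00, edgeR adjusted p 0.0355), and 3.07 (adjusted p 0.0744) without WT baseline replicate 1. After PHx it was 0, 0.48, 3.42, 1.42 and 0.21 CPM in WT and 9.32, 1.65, 13.3, 12.1 and 1.70 CPM in KO. KO livers fell into 3 near or above 9 CPM (replicates 7, 10 and 11) and 2 below 2 CPM (replicates 8 and 12), and the latter overlapped WT. For KO against WT after PHx it was 2.77 (SE 0.90, edgeR adjusted p 0.0304). These calls were lost on leaving out 6 of 10 libraries in turn at baseline (highest adjusted p 0.0894, without KO replicate 12) and 3 of 10 after PHx (highest 0.0647, without WT replicate 5), while the log2 fold change stayed at 2.45 or above in every alternative. Counting every alternative, the call after PHx was lost in 5 of 18. The fit of only the 10 samples compared gave 2.80 (edgeR adjusted p 0.128) and the 18 unpaired libraries 2.45 (adjusted p 0.0518). Without WT after PHx replicate 3 the log2 fold change after PHx was 3.83 (edgeR adjusted p 0.00829). The PHx response missed the threshold in WT (2.41, SE 0.99, edgeR adjusted p 0.0922) and in KO (2.00, SE 0.87, adjusted p 0.0872). The WT response of Cux2 was called in 4 of 18 alternatives, among them DESeq2 (adjusted p 0.0328) and the fit without WT after PHx replicate 1 (2.73, edgeR adjusted p 0.0364), and was 1.35 (adjusted p 0.345) without WT after PHx replicate 3. The KO response was called in 3 of 19, among them the fit without the 30 h livers (2.25, edgeR adjusted p 0.0335).

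Bcl6 (ENSMUSG00000022508, chromosome 16, 23965052 to 23988852, minus strand), a transcriptional repressor, varied widely within the groups. WT livers at baseline held 105, 7.05, 8.95, 149 and 31.7 CPM. KO livers at baseline held 6.41, 7.02, 8.69, 15.9 and 38.9 CPM. Replicates 1 and 4 of WT were far above the rest, and the other 3 WT livers lay within the KO range. KO against WT gave -1.97 (SE 0.75, edgeR adjusted p 0.0793) before surgery, and -1.74 (SE 0.75, adjusted p 0.0976) after PHx. DESeq2 called both (adjusted p 0.0313 and 0.0498), and edgeR called the baseline value without WT replicate 2 (0.0445) or KO replicate 12 (0.0325). Without the WT livers of highest Bcl6 it was smaller, -1.32 (edgeR adjusted p 0.265) without replicate 4 and -1.68 (0.165) without replicate 1. After PHx the range was 7.94 to 44.6 CPM in WT and 3.16 to 10.7 CPM in KO.

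The secreted products followed. Igf1 (ENSMUSG00000020053, chromosome 10, 87858265 to 87937042, plus strand) encodes the growth factor through which much of the hormone's action on body growth runs. WT livers held 687, 927, 831, 873 and 973 CPM at baseline and 712, 535, 714, 790 and 574 CPM after PHx. KO livers held 503, 673, 555, 547 and 457 CPM at baseline and 404, 185, 486, 320 and 444 CPM after PHx. At each stage every KO liver was below every WT liver, by a narrow margin. The genotypes differed by a log2 value of -0.65 at baseline (SE 0.22, edgeR adjusted p 0.0447) and -0.85 after PHx (SE 0.22, edgeR adjusted p 0.00689). The baseline call sat at the threshold and was lost in 11 of 17 alternatives, with library size alone at -0.18 (edgeR adjusted p 0.525); the call after PHx was lost in 1 of 18, the fit of only the 10 samples compared (adjusted p 0.0837). Igf1 was lower after PHx in all 9 numbered mice, by a median of 0.49 in WT and 0.31 in KO on the log2(CPM + 1) scale. The KO mice changed by -1.86 to -0.04 on that scale. The fitted response was -0.37 (SE 0.21, edgeR adjusted p 0.238) in WT and -0.57 (SE 0.21, adjusted p 0.0503) in KO, and neither was called. The KO response was at the threshold and was called in 6 of 19 alternatives, among them DESeq2 (adjusted p 0.0479) and the fit without KO after PHx replicate 10 (-0.70, edgeR adjusted p 0.0178).

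Igfals (ENSMUSG00000046070, chromosome 17, 24865997 to 24882010, plus strand) encodes the acid-labile subunit that holds IGF1 in a large complex in blood. WT livers at baseline held 135, 173, 127, 173 and 173 CPM. After PHx they held 89.0 CPM at 30 h, 7.66 and 26.5 CPM at 40 h, and 8.65 and 48.4 CPM at 48 h. The WT response was -2.11 (SE 0.55, edgeR adjusted p 0.0108), with no overlap and with 4 of 4 numbered mice lower, and -2.77 (adjusted p 0.00172) without the 30 h liver. KO livers held 69.0, 68.3, 97.8, 101 and 119 CPM at baseline and 19.9, 25.6, 84.9, 69.7 and 21 CPM after PHx. Replicates 10 and 11, the 40 h livers, stayed inside the KO baseline range and the other 3 were below it. The KO response was -1.04 (SE 0.53, edgeR adjusted p 0.140), and -1.42 (adjusted p 0.0479) without replicate 10. The difference of the responses was 1.07 (SE 0.75, edgeR adjusted p 0.562), so a weaker fall in KO was not shown. With 1 library left out it ran from 0.69 (without KO after PHx replicate 10) to 1.73 (adjusted p 0.283, without WT after PHx replicate 1, the 30 h liver). At baseline every KO liver was below every WT liver, but the difference of -0.78 (SE 0.53) had an edgeR adjusted p of 0.341 in the fit of all 20 libraries and of 0.00242 in the fit of the 10 baseline libraries alone.

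**Figure D3:**
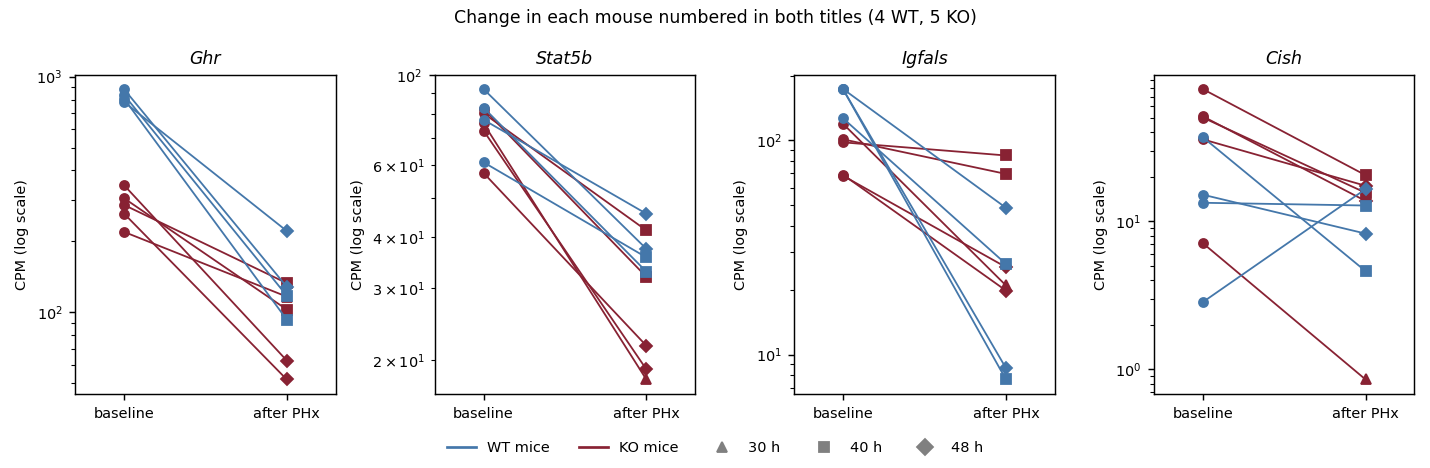
CPM on a log scale of Ghr, Stat5b, Igfals and Cish at baseline and after PHx in the 4 WT and 5 KO mice numbered at both stages, 1 line per mouse; the symbol gives the hours after PHx. All lines of Ghr, Stat5b and Igfals go down, and for Cish 5 of 5 KO and 3 of 4 WT lines do.

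The feedback inhibitors are induced by the signal they dampen, and both varied widely between livers. Socs2 (ENSMUSG00000020027, chromosome 10, 95385362 to 95417180, minus strand) encodes a protein that targets the receptor complex for degradation. WT livers held 28.5, 47.7, 50.8, 9.08 and 79.1 CPM at baseline and 7.37, 19.7, 3.84, 19.1 and 5.12 CPM after PHx. The fall of -1.96 (SE 0.60, edgeR adjusted p 0.0272) was called although the groups overlapped through WT replicate 4. With mouse as a replicate block over the 9 numbered mice the response was -2.08 (edgeR adjusted p 0.170), and the same 18 libraries without the block gave an adjusted p of 0.0611. The call was also lost on leaving out 5 of 10 libraries in turn (highest adjusted p 0.0793, without WT baseline replicate 5). KO livers held 62.3, 49.2, 71.4, 48.9 and 7.56 CPM at baseline and 52.1, 20.1, 18.7, 11.7 and 33.9 CPM after PHx, and their response of -0.81 (SE 0.58, edgeR adjusted p 0.297) was not called. KO against WT after PHx was 1.31 (SE 0.59, adjusted p 0.117).

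Cish (ENSMUSG00000032578, chromosome 9, 107296026 to 107302784, plus strand) encodes an inhibitor of the same family that competes for STAT5 docking sites. WT livers at baseline held 2.54, 37.2, 13.4, 2.84 and 15.2 CPM. KO livers at baseline held 36.0, 51.5, 50.5, 78.7 and 7.14 CPM. The 4 highest KO livers lay between 36.0 and 78.7 CPM and 4 of 5 WT livers at 15.2 CPM or below, and the difference of 1.65 (SE 0.74) had an edgeR adjusted p of 0.135. Without WT replicate 2 it was 2.40 (edgeR adjusted p 0.0481). After PHx the KO livers held 17.4, 13.8, 15.6, 20.6 and 0.85 CPM and the WT livers 3.97, 4.61, 12.8, 16.6 and 8.28 CPM. All 5 KO mice went down, by 1.00 to 2.14 on the log2(CPM + 1) scale, and the KO response was -1.71 (SE 0.74, edgeR adjusted p 0.0840) without and -1.88 (adjusted p 0.0353) with mouse as a replicate block. The exons of Cish share 740 bases with Gm17040 and Gm17041 on the other strand, whose reads cannot be told apart from those of Cish without strand.

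Levels can be ordered between genes per kilobase of exon. In WT at baseline Ghr (89.6 ± 6.02 CPM per kb) and Igf1 (86.7 ± 11.1) came first and overlapped in range, Igfals followed at 49.3 ± 7.38 and Stat5b at 13.8 ± 2.20 (SD, n = 5 each), each apart from the gene above it. Bcl6, Socs2, Jak2, Cish and Stat5a followed between 9.0 and 1.97 CPM per kb, with each overlapping its neighbour, and Cux2 was last at 0.020. In KO at baseline Igf1 led at 55.2 ± 8.15 CPM per kb and lay above Ghr at 31.4 ± 5.24, which overlapped Igfals at 28.8 ± 6.97 (SD, n = 5 each). After PHx Igf1 was first in both genotypes, at 67.2 ± 10.8 CPM per kb in WT, where it lay above Ghr at 21 ± 13.4, and at 37.1 ± 12 in KO, where it overlapped Igfals at 14 ± 9.71 (SD, n = 5 each). Cux2 had the lowest mean in all 4 groups, and in KO after PHx (0.75 ± 0.56 CPM per kb) it overlapped Bcl6 (1.13 ± 0.54; SD, n = 5 each).

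The ligand gene Gh had 1 count and Prl, the prolactin gene, 0 counts over all 20 libraries. Of 29 further receptor, kinase, STAT, SOCS, phosphatase and adaptor genes, these included, 26 were tested. KO against WT called 2 higher and 0 lower at baseline and 3 higher and 0 lower after PHx, and the PHx response 5 higher and 1 lower in WT and 6 higher and 2 lower in KO. As shares of the genes tested, 7.69%, 11.5%, 19.2% and 23.1% were higher in that order, against 11.1%, 16%, 11.4% and 17.5% of all genes, and 0, 0, 3.85% and 7.69% lower, against 4.89%, 8.20%, 8.68% and 12.1%. The genotype shares were thus below those of all genes. Without WT baseline replicate 1, 3 rose in the WT response (11.5%, against 8.68% of all genes). The list's median log2 fold change was 0.06, 0.15, 0.00 and 0.13. Socs3, the cytokine-induced inhibitor, was at 6.22 ± 3.17 CPM in WT and 33.9 ± 23.4 CPM in KO at baseline (SD, n = 5 each; log2 fold change 2.44, SE 0.57, edgeR adjusted p 0.00632). It reached 37.0 ± 25.1 CPM in WT after PHx (SD, n = 5; 2.57, SE 0.58, adjusted p 0.00462). The kinase gene Jak3 was also higher in KO at baseline (11.5 CPM, against 5.39 in WT; 1.09, SE 0.28, edgeR adjusted p 0.0117). Socs6, of the same inhibitor family as Socs3, and Pias1, a SUMO ligase, were higher in KO after PHx (48.7 against 17.3 CPM and 23.1 against 12.7 CPM; 1.49, SE 0.35, and 0.87, SE 0.19; edgeR adjusted p 0.00454 and 0.00246). Prlr, the prolactin receptor and a relative of Ghr, fell in WT after PHx from 116 ± 23 to 43.8 ± 19.7 CPM (SD, n = 5 each; -1.41, SE 0.45, edgeR adjusted p 0.0309).

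Beside the lower Igf1, its receptor gene was higher in KO. Igf1r, nearly silent in adult hepatocytes, was at 0.33 ± 0.06 CPM in WT and 7.10 ± 2.08 CPM in KO at baseline, and at 0.34 ± 0.18 and 9.41 ± 3.68 CPM after PHx (SD, n = 5 each). KO exceeded WT by log2 values of 4.43 (SE 0.39, edgeR adjusted p 5.95e-07) and 4.74 (SE 0.39, 3.29e-07). Igf2, the fetal growth factor, was at 0.11 ± 0.07 CPM in WT (14 counts in all) and 15.9 ± 13.9 CPM in KO after PHx (SD, n = 5 each; 7.13, SE 0.86, edgeR adjusted p 9.46e-06). Igfbp7, a binding protein, was higher in KO at baseline (145 against 75.7 CPM; 0.94, SE 0.18, edgeR adjusted p 0.00125) and fell after PHx in both genotypes (-0.57 and -0.48, SE 0.18 each, edgeR adjusted p 0.0293 and 0.0480). Of the 13 genes in this list, all tested, 2 were called higher and 0 lower at baseline and 4 higher and 0 lower after PHx; the PHx response held 0 higher and 1 lower in WT and 2 higher and 1 lower in KO. The shares called higher were 15.4%, 30.8%, 0 and 15.4%, against 11.1%, 16%, 11.4% and 17.5% of all genes, so those at baseline and in the KO response lay near the share of all genes. The shares called lower were 0, 0, 7.69% and 7.69%, none above the 4.89%, 8.20%, 8.68% and 12.1% of all genes. Without WT baseline replicate 1 no gene of the list was called lower in the WT response. The list's medians were 0.27, 0.96, -0.09 and 0.41.

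Genes that growth hormone is known to set apart between the sexes were counted next. Of 22 male-biased genes 21 were tested. KO against WT called 13 lower at baseline and 14 lower after PHx, and the PHx response 17 lower in WT and 18 lower in KO, with 0 higher in each. These are 61.9%, 66.7%, 81% and 85.7% of those tested, against 4.89%, 8.20%, 8.68% and 12.1% of all genes lower. Their medians were -1.78, -2.02, -1.77 and -1.92. Hsd3b5, a steroid-metabolising enzyme, was at 558 ± 36.8 CPM in WT and 17.3 ± 14.3 CPM in KO at baseline (SD, n = 5 each; -5.01, SE 1.21, edgeR adjusted p 0.00772) and fell to 24.8 ± 42.6 CPM in WT after PHx (SD, n = 5; -4.50, SE 1.18, adjusted p 0.0118). Elovl3, a fatty acid elongase, was at 890 ± 327 CPM in WT and 54.8 ± 35.4 CPM in KO at baseline (SD, n = 5 each; -4.02, SE 0.71, edgeR adjusted p 0.000635). The Mup genes in this list are near-identical copies, and reads that map to several places were left out of the counts.

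Of 25 female-biased genes 20 were tested. KO against WT called 8 higher and 0 lower at each stage (40%, against 11.1% and 16% of all genes), with medians of 1.69 and 1.34. Sult2a1, a sulfotransferase, had 0 counts in the 5 WT livers at baseline and 3316 in KO (25.7 ± 13.6 CPM, SD, n = 5), and Sult2a2 had 1 count and 1654 counts (13.1 ± 5.98 CPM in KO, SD, n = 5). Without WT baseline replicate 1, 5 were called higher at baseline (25%, against 9.41% of all genes). PHx raised 4 and lowered 1 in WT (20% and 5%, against 11.4% and 8.68% of all genes) and raised 4 and lowered 0 in KO (20%, near the 17.5% of all genes, and 0, against 12.1%), with medians of 0.26 and 0.19. Akr1b7, an aldose reductase relative, rose after PHx from 0.22 to 11.6 CPM in WT and from 1.07 to 41.2 CPM in KO (5.68, SE 1.12, and 5.28, SE 1.02; edgeR adjusted p 0.00195 and 0.00177). The lists were chosen with the direction of such genes in these livers known, so these counts are a description.

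**Figure D4:**
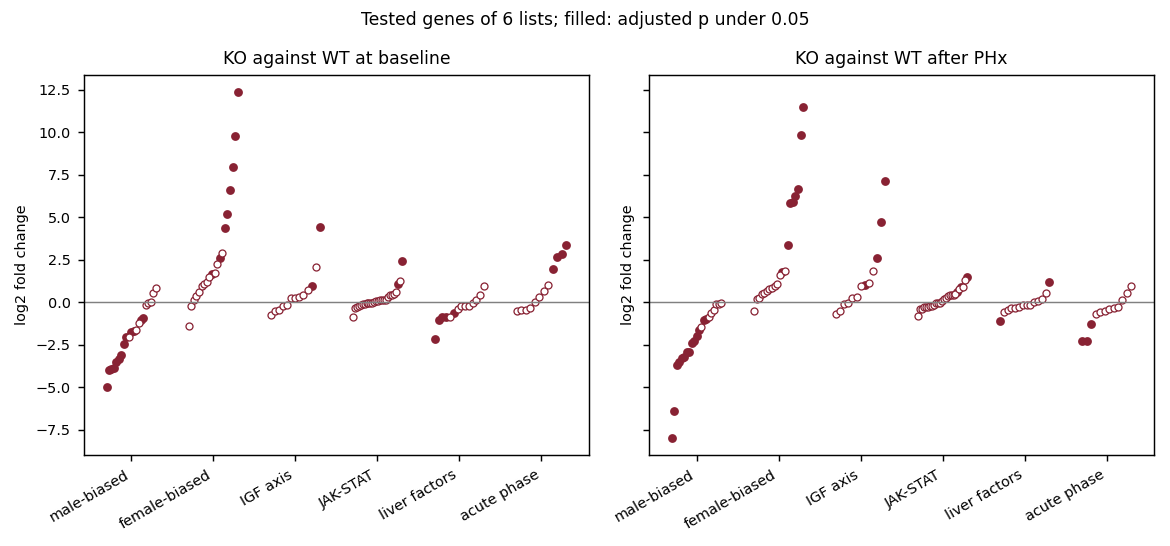
Log2 fold change (y axis) of each tested gene of 6 lists, ordered within each list, for KO against WT at baseline and after PHx; filled points have an edgeR adjusted p under 0.05. Male-biased genes called are all below 0 (13 and 14 of 21) and female-biased genes called all above 0 (8 and 8 of 20); values beyond 9 belong to Sult2a1 and Sult2a2, which have 0 to 4 counts in the WT group, and depend on the fit's prior count.

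Among 14 liver transcription factors that act with STAT5 or on sex-biased genes, 0 were called higher and 5 lower in KO at baseline, and 1 higher and 1 lower after PHx. The shares lower were 35.7% and 7.14%, against 4.89% and 8.20% of all genes, so that after PHx lay near the share of all genes, and the share higher after PHx, 7.14%, was below their 16%. Without WT baseline replicate 1, 3 were lower at baseline (21.4%, against 3.41% of all genes). Onecut2, a liver-enriched cut-homeobox factor, was lower at both stages (42.4 against 87.7 CPM and 32.1 against 68.6 CPM; -1.05 and -1.10, SE 0.21 each, edgeR adjusted p 0.00197 and 0.000856). Tox, which encodes a nuclear protein, was lower in KO at baseline (0.40 against 1.82 CPM; -2.18, SE 0.56, edgeR adjusted p 0.0110) and rose in KO after PHx to 6.15 CPM (3.94, SE 0.58, adjusted p 0.00042). The PHx response called 1 higher and 4 lower in WT (7.14% and 28.6%, against 11.4% and 8.68% of all genes) and 3 higher and 2 lower in KO (21.4% and 14.3%, near the 17.5% and 12.1% of all genes). Trim24, a nuclear receptor cofactor, rose from 13.1 to 36.6 CPM in WT (1.49, SE 0.20, edgeR adjusted p 9.86e-05) and from 14.4 to 36.1 CPM in KO (1.33, SE 0.20, adjusted p 0.000482). Onecut1 fell in both genotypes (34.5 to 6.30 CPM in WT and 19.1 to 5.18 CPM in KO; -2.45, SE 0.67, and -1.88, SE 0.66; edgeR adjusted p 0.0148 and 0.0384).

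The last list held 12 genes known as targets of STAT3, a STAT of the acute phase. STAT3 activity itself was not measured. KO against WT called 4 higher and 0 lower at baseline (33.3% higher, against 11.1% of all genes) and 0 higher and 3 lower after PHx (25% lower, against 8.20%). For the difference of the responses 3 were called lower (25%, against 0.225%), and 1 without WT baseline replicate 1. The PHx response called 6 higher in WT and 5 in KO (50% and 41.7%, against 11.4% and 17.5%), with 0 lower. Lcn2, lipocalin 2, was at 5.05 ± 4.30 CPM in WT and 51.2 ± 42.3 CPM in KO at baseline (SD, n = 5 each; 3.34, SE 0.72, edgeR adjusted p 0.00330). It rose after PHx to 2520 and 1560 CPM (8.96, SE 0.92, and 4.93, SE 0.76; edgeR adjusted p 5.87e-06 and 0.000518). Saa2, a serum amyloid gene, was higher in KO at baseline (103 against 14.3 CPM; 2.84, SE 0.67, edgeR adjusted p 0.00669) and lower after PHx (685 against 3330 CPM; -2.28, SE 0.65, adjusted p 0.0155). The neutrophil list (6 genes) summed to 1.19 to 2.15 CPM in WT and 3.71 to 11.1 CPM in KO at baseline, with Ly6g at 0, and to 1.89 to 48.4 CPM and 4.28 to 72.3 CPM after PHx; its part in these values was not tested.

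Genes with a pattern most like a member were found as those with the smallest root mean square difference of log2(CPM + 1), each centred on its mean over the 20 libraries, for the 5 called members whose group means ranged widest. For Ghr, which itself varied by 1.26 around its mean, they were Glo1 (0.37), Pdilt (0.38) and Lifr (0.39). For Igfals (1.31) they were Fn3k (0.40), Hes6 (0.43) and Abcb10 (0.43). For Stat5b (0.72) they were Btbd2 (0.29), Dynll2 (0.30) and Ppp2r5a (0.31). For Cux2 (1.17) they were Cerk (0.67), Kctd1 (0.68) and Epha4 (0.70), and for Socs2 (1.23) Ikzf4 (0.89), Ltbp4 (0.91) and Bach2 (0.93), so that no gene tracked Socs2 closely. Lifr, the receptor for leukaemia inhibitory factor, was at 545, 117, 103 and 46.2 CPM in WT at baseline, KO at baseline, WT after PHx and KO after PHx, in the same order as Ghr at 811, 284, 190 and 93.4 CPM.

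Bcl6, Socs2 and Cish were set against each other liver by liver at baseline. The livers with the highest Bcl6, WT replicates 4 and 1 and KO replicate 12, had the lowest Cish of their genotype, and WT replicate 4 and KO replicate 12 also the lowest Socs2. Over the 10 baseline livers, with log2(CPM + 1) centred within genotype, Pearson's r was -0.83 for Bcl6 and Cish, -0.74 for Bcl6 and Socs2 and 0.81 for Socs2 and Cish. The exact permutation p was 0.0128, 0.0158 and 0.0199, each 0.0399 after adjustment over 6 relations. Spearman's rho was -0.45, -0.65 and 0.35 (exact permutation p 0.246, 0.0761 and 0.380; adjusted 0.492, 0.327 and 0.555). Without the 2 livers farthest from the median of the first gene, r was -0.65, -0.57 and 0.48 (exact permutation p 0.146, 0.165 and 0.410) over 8 livers. The direction stayed and no p was under 0.05; the livers left out are those farthest in Bcl6 for the first pair of relations and in Socs2 for the last. Without WT baseline replicate 1 r was -0.80, -0.78 and 0.86 over 9 livers (exact permutation p 0.0295, 0.0399 and 0.0444), each with an adjusted p of 0.0889. After PHx r was 0.10, -0.53 and -0.23 (exact permutation p 0.805, 0.159 and 0.536). The relations were chosen after the values were seen.

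**Figure D5:**
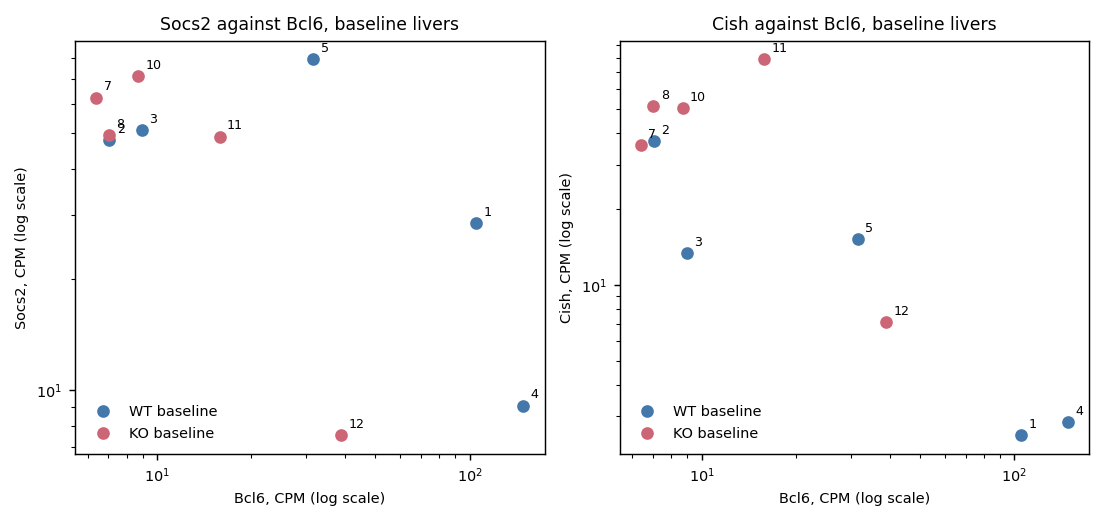
Socs2 (left) and Cish (right) against Bcl6 in the 5 WT and 5 KO baseline livers, CPM on log scales, labelled by replicate. WT replicates 1 and 4 and KO replicate 12 sit to the right, with Bcl6 at 105, 149 and 38.9 CPM and Cish at 2.54, 2.84 and 7.14 CPM.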

How the data were processed

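Per the series' design text, RNA had to exceed an integrity number of 8, 1000 ng entered TruSeq libraries, and these were sequenced paired-end on a NovaSeq 6000. That text names FastQC 0.11.5 and fastp 0.20.0, and the submitters' processing notes name Trimmomatic 0.36; reads were aligned to mm10 and only uniquely mapped reads counted. The aligner, counter, strand setting and annotation release are not given in the sources used here. The authors deposited whole-number read counts of Ensembl genes, not normalised, in a separate file for each library.

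Symbols and coordinates came from GENCODE M21, which holds 46005 of the 46603 identifiers. One edgeR 4.0.16 quasi-likelihood fit (R 4.3.3, TMM, filterByExpr) held all 20 libraries and 4 group means. p-values were adjusted by Benjamini-Hochberg over 14661 genes, and the code was tested on simulated data. The members and lists were chosen with earlier results of these data known. Other genes are named by a rule: in each genotype comparison the 2 highest and 2 lowest called genes of a list, and in each PHx response the highest and lowest, at a mean of at least 1 CPM. Stat3, Gh and Prl were named outside it, for overlap and as ligands. Some genes the rule picks are not reported here. The pairing comes from the labels; residuals of the 9 same-mouse pairs correlated at -0.06 to 0.20 (median 0.05), and those of 36 other pairs at -0.23 to 0.28 (median -0.01). Replicate libraries differed beyond sampling noise (mean chi-square per gene at least 29.3). Alternatives were DESeq2 1.42.0, library size alone, other filters, fewer samples, a collection time term, each library left out, a mouse block and, chosen after seeing the data, leaving out the 30 h libraries and, for lists, the ratio and relations, WT baseline replicate 1.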

Additional observations from a re-analysis of the deposited data

Results flagged for a closer look

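In each of 40 sets of 5 libraries, 1 per gene and group, the gap of the most extreme library was compared with the group's range (critical ratio 0.71). Chance marks about 1 in 20 such sets, and 2 of the 40 were marked. Stat5a was at 17 CPM in KO after PHx replicate 11, a 40 h liver, against 7.24 to 9.88 CPM in the other 4. Without that liver the KO response of Stat5a was -0.58 (edgeR adjusted p 0.0357). Cux2 was at 4.18 CPM in KO baseline replicate 12, against 0.83 to 1.69 CPM in the other 4. Without that liver KO against WT at baseline was 2.68 (edgeR adjusted p 0.0894).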

How the results depend on the processing

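Over the 10 genes and 5 comparisons, 919 values kept their direction and side of the threshold under an alternative, 39 lost and 30 gained a call and 21 changed sign, none of these a called value. Members called higher or lower in KO at baseline numbered 1 and 2 in the fit reported. Counts of 1 lower at baseline were given by library size alone, by no filter on low counts and by the 18 libraries of the 9 numbered mice without the block, and counts of 3 lower by DESeq2, which added Bcl6, and by the 10 samples compared, which added Igfals. After PHx, against 1 higher and 2 lower, library size alone gave 3 higher and 1 lower, the 10 samples compared 0 and 0, the 18 unpaired libraries 0 higher and 1 lower, and leaving out the 30 h libraries 1 lower. For the PHx response 1 member, against 0, was called higher in WT by library size alone, DESeq2 and leaving out the 30 h libraries, and in KO by library size alone, the 10 samples compared and leaving out the 30 h libraries. In KO 4 members, against 2, were called lower by DESeq2 and with a collection time term. Leaving out 1 library at a time gave 0 to 2 higher and 1 to 2 lower at baseline, 0 to 2 higher and 1 to 3 lower after PHx, 0 to 1 higher in the WT response, and 0 to 1 higher and 2 to 4 lower in the KO response. The cause of these changes was not tested.

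Library size alone moved the median of all genes to 0.45, 0.37, 0.40 and 0.37 in KO against WT at baseline and after PHx and in the WT and KO responses, and turned KO against WT at baseline to 0.27 for Stat5a, 0.42 for Stat5b and 0.27 for Jak2, and the KO response of Stat5a to 0.03. It called 3521 genes higher and 113 lower at baseline, against 1631 and 717. After PHx it called 3897 and 296, against 2342 and 1202, in the WT response 3796 and 582, against 1677 and 1273, and in the KO response 4059 and 961, against 2561 and 1770. Without the filter Stat5b at baseline was 0.017, and 345 genes were called lower there. The 10 samples compared alone gave 2846 higher and 2396 lower at baseline and 1127 and 218 after PHx. DESeq2 called 186 higher and 166 lower for the difference of the responses, against 24 and 33, and leaving out 1 library at a time 6 to 412 and 15 to 296.

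With mouse as a replicate block the WT response of Socs2 lost its call, the KO response of Cish gained one, no other call of a member changed, and the difference of the responses of Bcl6 turned to -0.61. The block called 884 genes higher and 1095 lower in the WT response, 1625 and 1759 in KO, and 2 and 5 for their difference; the same 18 libraries without it gave 1326 and 1084, 2515 and 1652, and 9 and 25. Single libraries left out turned the sign of uncalled values: Socs2 at baseline ran from -0.11 to 0.49, Stat5b at baseline from -0.12 to 0.091, the WT response of Cish from -0.89 to 0.12, Stat5a after PHx from -0.21 to 0.21 and Igfals after PHx from -0.085 to 0.95. For the difference of the responses Stat5a ran from -0.056 to 0.40, Bcl6 from -0.43 to 0.92 and Cux2 from -0.92 to 0.64. Depth limits Cux2 most, with 0 to 9 counts per WT baseline library.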
